A study of Mus musculus with 13 samples.

Results

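The p53 pathway was examined through 10 genes in mouse liver, namely Trp53, which encodes p53 itself, and 9 genes that p53 is known to switch on: Mdm2, Cdkn1a, Ccng1, Phlda3, Trp53inp1, Bax, Fas, Tnfrsf10b and Eda2r. The 10 were chosen on results of these same comparisons, by name and by how they moved, out of 23725 genes in the larger tables. Each was matched by its Entrez identifier, each had the same counts in the 3 deposited tables, and each passed the filter on low counts in every comparison. RNA came from whole livers of 3-month-old C57 mice, described in the study as males. The 5 no BDL mice are labelled as without BDL, and their labels name no oligonucleotide. The 4 miR-Ctrl BDL mice had bile duct ligation (BDL), an operation that ties off the bile duct so that bile is retained in the liver, and received a control oligonucleotide. The 4 anti-miR-873-5p BDL mice had the same operation and received an oligonucleotide that blocks miR-873-5p, a microRNA that represses Gnmt. Per the study's methods, both oligonucleotides were given on the third and the fifth day after ligation and livers were taken on the seventh day. Among the 3 groups analysed here none is described as given an oligonucleotide without ligation, and none as sham-operated. The operation and the control oligonucleotide therefore cannot be told apart.

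p53 is a transcription factor that accumulates when DNA is damaged or the cell is otherwise stressed, because its degradation by the ubiquitin ligase MDM2 is then interrupted. It binds response elements near its target genes, whose products stop the cell cycle, repair DNA, limit growth signals or start apoptosis, and it also induces Mdm2, which closes a negative feedback loop. In injured liver the best known of these targets is Cdkn1a, whose product p21 inhibits cyclin-dependent kinases and, through the DREAM repressor complex, lowers the transcription of cell cycle genes.

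Both kinds of regulatory sequence that bear on these genes are shown here, from RefSeq tables of build GRCm38.p6. The microRNA that the treatment blocks, mmu-miR-873a-5p, lies on the minus strand at chr4:36668556-36668576. Its mature sequence is printed with the seed, bases 2 to 8, in capitals.

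mmu-miR-873a-5p: gCAGGAACuugugagucuccu

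A match to this seed, that is GTTCCTG (bases 2 to 8 paired) or TTCCTGA (bases 2 to 7 paired, followed by an A), was found on the transcript strand in the longest 3′ UTR annotated by GENCODE M21 of 5 of the 10 genes, against 25.1% of 20979 genes with an annotated 3′ UTR. The UTRs differ in length, from 224 bases in Bax to 4420 bases in Trp53inp1. Each match is printed below with its neighbouring bases, the 8 bases facing positions 8 to 1 of the microRNA in capitals. They are shown to mark where these letters occur. The annotated 3′ UTR of Gnmt, the gene this microRNA is known to repress, is 136 bases long and held no match in the same search, so neither a match nor its absence says whether the microRNA acts on a transcript.

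Trp53: ctgagtagtgGTTCCTGGcccaa

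Mdm2: cagctccgtgGTTCCTGGtggtt

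Phlda3: tgaagattcaGTTCCTGGacact

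Tnfrsf10b: gattacctttGTTCCTGAacaag

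Trp53inp1, first match: gtgaagtattATTCCTGAagcag

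Trp53inp1, second match: ttagtgttttGTTCCTGTaaatc

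No such match was found in Cdkn1a, Ccng1, Bax, Fas or Eda2r. The Tnfrsf10b match satisfied both patterns.

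RefSeq promoter windows, from 250 bases before to 50 bases after an annotated start, were given for 8 of the 10 genes and not for Trp53inp1 or Tnfrsf10b. The p53 consensus decamer was searched on both strands, allowing a pair of decamers up to 13 bases apart with up to 3 mismatches in all. An exact decamer occurred in a window of 5 of these 8 genes, Trp53, Mdm2, Cdkn1a, Ccng1 and Bax, against 8.36% of 32851 windows in the genome. A pair within 3 mismatches occurred in Trp53, Cdkn1a, Ccng1 and Bax, against 15.6% of windows. Such sites are part of how p53 targets are known, so the share is no finding. The window of the more upstream of both annotated Cdkn1a starts lies on the plus strand at chr17:29090729-29091028. It held 2 exact decamers with 12 bases between them, from -73 to -42 relative to the start, and they are in capitals. The second of them is followed with no gap by tgacatgttc, which departs from the consensus in its first base and is left in small letters. Capitals mark the pair with the fewest mismatches, so this closer pair is not marked as such.

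Cdkn1a promoter: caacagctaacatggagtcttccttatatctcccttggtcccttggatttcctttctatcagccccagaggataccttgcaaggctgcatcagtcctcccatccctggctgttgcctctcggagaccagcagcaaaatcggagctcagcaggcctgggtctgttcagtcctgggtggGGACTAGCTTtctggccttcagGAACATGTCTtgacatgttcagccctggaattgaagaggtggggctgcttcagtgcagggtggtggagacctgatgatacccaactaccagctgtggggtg

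Ccng1 carried a pair with 1 mismatch and no gap at -195 to -176, and Bax a pair with 2 mismatches and 1 base between them at -201 to -181. Both are given with the decamers in capitals, since these genes moved far less than Cdkn1a.

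Ccng1 pair: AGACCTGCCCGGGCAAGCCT

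Bax pair: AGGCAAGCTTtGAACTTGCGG

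The window of Phlda3, the gene with the largest change of the 10, lies on the plus strand at chr1:135765835-135766134 and held no exact decamer and no pair. It is printed for comparison with Cdkn1a, and the absence says only that these letters are not in this window.

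Phlda3 promoter: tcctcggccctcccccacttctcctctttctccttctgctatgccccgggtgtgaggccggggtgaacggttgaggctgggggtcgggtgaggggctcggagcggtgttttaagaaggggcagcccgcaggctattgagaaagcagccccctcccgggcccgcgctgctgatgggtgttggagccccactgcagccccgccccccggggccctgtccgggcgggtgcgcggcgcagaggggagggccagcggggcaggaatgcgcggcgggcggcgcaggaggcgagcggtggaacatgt

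Depth ran from 12185333 to 19689037 counted reads per mouse. Levels of single mice are normalized counts, meaning CPM after TMM scaling over all 13 mice, and changes are log2 fold changes with their standard error (SE) from edgeR's fit of the table of each comparison. A gene is said to be called when its adjusted p, over all genes tested, was under 0.05. Hepatocyte markers had a summed level of 118800 to 137100 in no BDL, 50200 to 80290 in miR-Ctrl BDL and 43440 to 93640 in anti-miR-873-5p BDL, and 5 and 3 of 8 were called lower in the respective BDL groups. Cholangiocyte markers ran from 28.3 to 38.1, 69.2 to 109.2 and 61.9 to 138.5, with 7 of 8 called higher in both BDL groups. Macrophage markers (95.6 to 506.1, 653.8 to 1642 and 401.8 to 1155) were called higher in 7 and 4 of 8, stellate cell markers (53.4 to 98.9, 239.2 to 647.9 and 123.4 to 783.2) in 5 of 8 in both, and neutrophil markers (8.56 to 22.3, 23.7 to 252.5 and 22.3 to 81.7) in 3 of the 4 that passed the filter. T and NK cell, B cell and endothelial markers had 0 genes called higher. Few could be tested, 2 and 1 for T and NK cells and 1 and 2 for B cells, against 7 endothelial markers in both comparisons. Called lower were 1 T and NK cell marker with miR-Ctrl, and 1 B cell and 1 endothelial marker with anti-miR-873-5p. The sums leave out Cps1 (hepatocyte), Spp1 (cholangiocyte) and Des (stellate cell), which the calls include, because levels used only genes with identical counts throughout. No list held a marker at 0 in all mice. Gnmt, the gene the blocked microRNA represses, was at 1137 to 1841 in no BDL and 456.4 to 627.5 in miR-Ctrl BDL. Mice 1 to 4 given anti-miR-873-5p had 942.0, 1462, 562.0 and 301.8, and mouse 2 is one that the authors left out when comparing both BDL groups. In whole liver, fewer cells of a type and less RNA per cell cannot be told apart, and the part that these shifts in cell markers play in the changes below was not tested. Every library is a separate animal, also where groups share a mouse number.

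All 10 genes had a positive log2 fold change after BDL with either oligonucleotide, by very different amounts. Phlda3, Cdkn1a and Eda2r were between 4.86 and 10.7 times their no BDL level in both BDL groups, while the other 7, Trp53 among them, were between 1.15 and 1.93 times that level. For miR-Ctrl BDL the log2 fold changes ran from 0.46 (Ccng1) to 3.08 (Phlda3) with a median of 0.70, against -0.01 over all 13072 genes tested. Of the 10, 6 were called higher (Trp53, Mdm2, Phlda3, Bax, Tnfrsf10b and Eda2r), where 19.1% of all genes were called higher and 16.6% lower. With anti-miR-873-5p the values ran from 0.21 (Fas) to 3.42 (Phlda3) with a median of 0.61, against -0.01 over all 13130 genes. Here too 6 were called higher (Mdm2, Ccng1, Phlda3, Bax, Tnfrsf10b and Eda2r), where 13.1% of all genes were called higher and 8.44% lower. The Wald test of DESeq2 called 9 of the 10 with miR-Ctrl, all but Ccng1, and the same 6 as edgeR with anti-miR-873-5p. With 1 mouse left out at a time, Tnfrsf10b with miR-Ctrl was called only without no BDL mouse 1, miR-Ctrl mouse 3 or miR-Ctrl mouse 4. Mdm2 and Ccng1 with anti-miR-873-5p were called only without no BDL mouse 5 or mouse 2 given anti-miR-873-5p. Bax with anti-miR-873-5p was not called without mouse 3 of that group. Phlda3 and Eda2r reached the minimum of the low-count filter in only 2 and 1 of the no BDL mice and passed it with the help of the BDL mice. Because the genes were picked with these contrasts in view, the counts describe them and support nothing further. Both comparisons also share the 5 no BDL mice. Library size alone as the scaling moved the median of all genes by 0.79 and 0.82, all 10 genes stayed positive, and the medians of the 10 became 1.499 and 1.43.

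**Figure D1:**
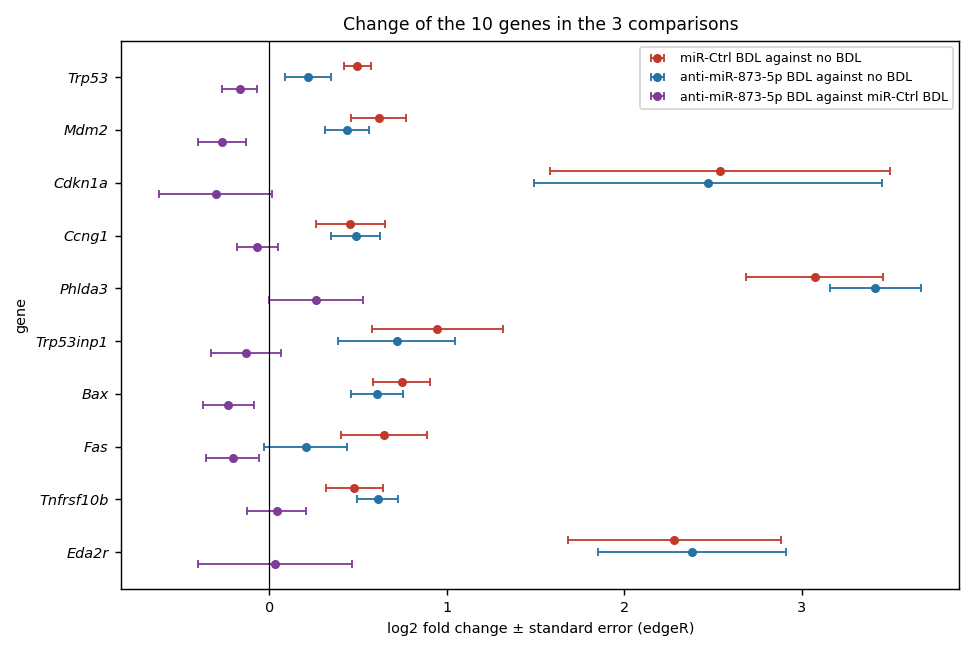
Log2 fold change of each gene (x axis) with its SE as bars, in red for miR-Ctrl BDL against no BDL, in blue for BDL with anti-miR-873-5p against no BDL and in purple for the 2 BDL groups against each other, miR-Ctrl being the reference. Red and blue points lie above 0 for all 10 genes, with Phlda3 at 3.08 and 3.42, and purple points lie between -0.30 and 0.26.

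Trp53, the gene for p53 itself (chr11:69580348-69591873), had 21.4, 20.8, 21.1, 19.9 and 22.7 normalized counts in no BDL mice 1 to 5. The miR-Ctrl BDL mice had 30.4, 28.3, 30.3 and 29.5, and those given anti-miR-873-5p had 24.8, 18.4, 29.0 and 24.6. All 4 miR-Ctrl BDL mice lay above all no BDL mice, with an SD of 0.956 around a mean of 29.6 (n = 4) against 21.2 ± 1.03 (SD, n = 5), whereas mouse 2 given anti-miR-873-5p lay below every no BDL mouse. The log2 fold change was 0.50 (SE 0.075) for miR-Ctrl BDL and 0.22 (SE 0.13) after anti-miR-873-5p. These are transcript levels, and p53 is controlled largely through the stability of its protein, which RNA does not show. A processed pseudogene, Trp53-ps, was among the genes that shared sequence with Trp53 transcripts, in which 3.88% of 50-base windows recur elsewhere.

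Mdm2, the ligase that degrades p53 and is itself induced by it (chr10:117688875-117710758), had 28.4, 27.7, 22.8, 26.6 and 34.6 in no BDL mice. After BDL it had 52.6, 44.6, 33.1 and 39.7 with miR-Ctrl, and 42.1, 36.0, 37.1 and 34.5 with anti-miR-873-5p. Mouse 5 of the no BDL group, at 34.6, reached the lower BDL mice, so both BDL groups overlapped it and it alone. Its change was 0.62 (SE 0.16) and 0.44 (SE 0.12) on the log2 scale.

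Among the genes that brake the cell cycle and growth signals, Phlda3 (chr1:135766085-135769134), whose product competes with the kinase AKT for membrane lipids, separated the groups completely. The no BDL mice had 0.861, 0.666, 1.02, 0.900 and 1.35 normalized counts, resting on 7 to 17 reads each. The miR-Ctrl BDL mice had 10.99, 11.9, 3.57 and 5.74 and those given anti-miR-873-5p had 11.4, 6.41, 11.4 and 11.6. Every BDL mouse thus lay above every no BDL mouse, the lowest of them being miR-Ctrl mouse 3. The change was 8.43-fold (log2 3.08, SE 0.39) with miR-Ctrl and 10.7-fold (log2 3.42, SE 0.26) with anti-miR-873-5p.

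Cdkn1a, which encodes p21 (chr17:29090979-29100722), varied more within no BDL and anti-miR-873-5p BDL than any other of the 10 by the ratio of highest to lowest, while Eda2r did so within miR-Ctrl BDL. In no BDL mice it had 11.2, 4.37, 1.02, 1.72 and 48.9, a spread of 47.8 times between lowest and highest. With miR-Ctrl it had 59.1, 67.0, 155.2 and 31.2, and with anti-miR-873-5p 32.5, 170.5, 56.4 and 38.7. No BDL mouse 5 lay among the BDL mice, and the other 4 no BDL mice lay below all of them. The log2 fold changes of 2.54 (SE 0.96) and 2.47 (SE 0.98) were not called by edgeR, and DESeq2 called the first. Leaving out no BDL mouse 5 gave 4.11 and 4.04, and both were then called, while leaving out miR-Ctrl mouse 3 gave 1.97 and leaving out mouse 2 given anti-miR-873-5p gave 1.67. An unstranded count cannot separate Cdkn1a from the transcript AC167363.2, which overlaps 10% of its exon bases on the opposite strand.

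Ccng1, which encodes cyclin G1, a protein that recruits a phosphatase to MDM2 (chr11:40748552-40755309), had 37.3, 31.9, 33.0, 25.7 and 40.4 in no BDL mice. It had 55.9, 51.9, 29.4 and 45.2 with miR-Ctrl, and 51.9, 39.7, 48.0 and 46.0 with anti-miR-873-5p. In both BDL groups 3 of 4 mice lay above all no BDL mice, the exceptions being miR-Ctrl mouse 3 and mouse 2 given anti-miR-873-5p. The log2 fold changes were 0.46 (SE 0.19) and 0.49 (SE 0.14), and the first became 0.61 and was called without miR-Ctrl mouse 3.

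Trp53inp1, a nuclear and autophagy-linked protein that promotes p53 activity (chr4:11156441-11174379), had 76.1, 39.6, 39.0, 28.6 and 46.7 in no BDL mice, where mouse 1 was highest. With miR-Ctrl it had 72.2, 65.6, 165.5 and 48.5, and with anti-miR-873-5p 56.3, 129.2, 67.3 and 46.3. The groups overlapped, and in both BDL groups a single mouse stood far above the others. The log2 fold changes of 0.95 (SE 0.37) and 0.72 (SE 0.33) were not called by edgeR, though DESeq2 called the first, and became 0.44 without miR-Ctrl mouse 3 and 0.32 without mouse 2 given anti-miR-873-5p.

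Bax, the pore-forming effector of mitochondrial apoptosis (chr7:45461695-45466903), had 17.7, 16.7, 20.3, 18.3 and 27.1 in no BDL mice. It had 37.6, 37.2, 30.3 and 28.0 with miR-Ctrl, and 31.0, 32.7, 30.4 and 26.2 with anti-miR-873-5p. All miR-Ctrl BDL mice lay above all no BDL mice, and only mouse 4 given anti-miR-873-5p, at 26.2, lay below no BDL mouse 5. Its log2 fold changes were 0.75 (SE 0.16) and 0.60 (SE 0.15). The transcript Gm45808 overlaps 22.1% of the exon bases of Bax on the same strand, so reads there are uncertain.

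Of the cell surface receptors, Fas (chr19:34290647-34327775), which starts apoptosis when bound by Fas ligand, had 14.6, 12.7, 12.8, 11.95 and 25.4 in no BDL mice. It had 19.3, 20.2, 32.0 and 25.0 with miR-Ctrl, and 16.4, 14.5, 21.7 and 17.7 with anti-miR-873-5p. No BDL mouse 5 was above 3 of the 4 miR-Ctrl BDL mice and all of the anti-miR-873-5p BDL mice. The log2 fold changes of 0.65 (SE 0.24) and 0.21 (SE 0.23) were not called by edgeR. DESeq2 called the first, as did the fit with a block on mouse number, which in effect leaves out no BDL mouse 5. Without no BDL mouse 5 the log2 fold changes were 0.90 and 0.46, the first of which was called.

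Tnfrsf10b, the TRAIL receptor (chr14:69767472-69784411), had 7.75, 7.04, 6.73, 6.30 and 6.201 in no BDL mice. It had 11.9, 9.91, 7.56 and 8.10 with miR-Ctrl and 10.5, 10.2, 10.6 and 9.67 with anti-miR-873-5p (coefficient of variation 4.10%). All anti-miR-873-5p BDL mice lay above all no BDL mice, and miR-Ctrl mouse 3 alone overlapped them. For Tnfrsf10b the log2 fold changes were 0.48 (SE 0.16) and 0.61 (SE 0.12), and 5.80% of its 50-base windows recur in other genes.

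Eda2r, a receptor of ectodysplasin and a member of the TNF receptor family (chrX:97333837-97377234), was near the limit of detection without BDL. It had 0.775, 0.190, 0.511, 0.491 and 1.35 in no BDL mice, from 2 to 17 reads each. With miR-Ctrl it had 5.16, 4.89, 0.748 and 2.12, and with anti-miR-873-5p 5.29, 1.36, 5.00 and 2.26. All BDL mice but miR-Ctrl mouse 3 lay above the no BDL mice, mouse 2 given anti-miR-873-5p by less than 0.01. The change was 4.86-fold (log2 2.28, SE 0.60) with miR-Ctrl and 5.21-fold (log2 2.38, SE 0.53) with anti-miR-873-5p.

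**Figure D2:**
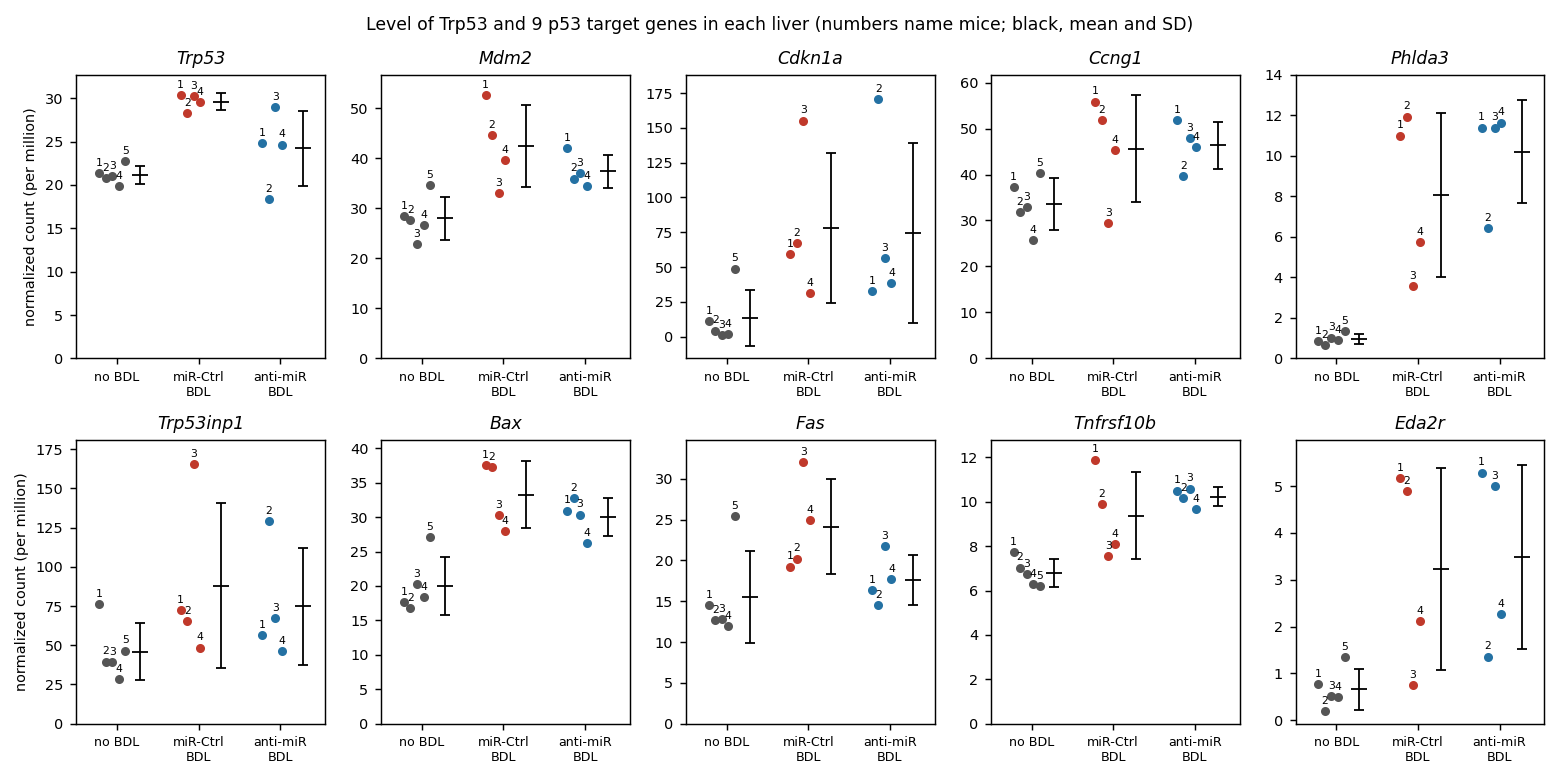
Normalized count (CPM) of each of the 10 genes (y axes, each panel with its own scale) in the 5 no BDL, 4 miR-Ctrl BDL and 4 anti-miR-873-5p BDL mice. Points are mice with their numbers, and black marks are the mean and SD of a group. Phlda3 separates the BDL mice from the no BDL mice, while Cdkn1a reaches 155.2 and 170.5 in 1 mouse of either BDL group and 48.9 in no BDL mouse 5.

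Neither of the ligand genes that could be tested for these receptors was called. Fasl, the ligand of Fas, had 0 to 5 reads per mouse and was below the filter in every comparison. Tnfsf10, which encodes TRAIL, had a level of 5.96 to 7.67 in no BDL, 2.16 to 10.7 in miR-Ctrl BDL and 3.62 to 8.05 in anti-miR-873-5p BDL, with log2 fold changes of -0.09 (edgeR quasi-likelihood test, adjusted p = 0.864) and -0.09 (adjusted p = 0.808). For Eda, the ectodysplasin gene, one of whose isoforms binds Eda2r, the log2 fold changes were 0.40 (adjusted p = 0.389) and 0.45 (adjusted p = 0.37).

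Set per kilobase of exon so that genes can be compared, Bax had the highest mean level in no BDL livers (23.1 ± 4.81, SD, n = 5), followed by Trp53 at 11.3. Ccng1, Mdm2, Fas and Trp53inp1 lay between 8.51 and 9.58 per kilobase with SDs of 1.35 to 3.34, so these neighbours did not differ beyond their spread. Cdkn1a followed at 4.945 ± 7.44, then Tnfrsf10b at 2.14, Phlda3 at 0.669 and Eda2r at 0.138. With miR-Ctrl BDL the order began with Bax at 38.4 ± 5.62 and Cdkn1a at 28.7 ± 19.7 per kilobase (SD, n = 4), which do not differ beyond the spread of Cdkn1a. Phlda3, at 5.62 ± 2.82, passed Tnfrsf10b at 2.95, and Eda2r stayed last at 0.673. The order in anti-miR-873-5p BDL began and ended alike, with Bax at 34.7, Cdkn1a at 27.4, Phlda3 at 7.11, Tnfrsf10b at 3.22 and Eda2r at 0.724 per kilobase.

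Whether blocking miR-873-5p altered these genes was asked in the table of both BDL groups, which holds mice 1, 2 and 4 given miR-Ctrl and mice 1, 3 and 4 given anti-miR-873-5p. The authors had removed outliers after clustering and principal component analysis. None of the 10 genes was called, with 0 of 13746 genes called in all (0%) and a lowest adjusted p of 0.757 by edgeR's quasi-likelihood test. At an unadjusted p of 0.05, 0 of the 10 genes passed, where 863 of all genes (6.28%) did, and DESeq2 called 31 genes, none of them among the 10. The log2 fold changes ran from -0.30 (Cdkn1a, SE 0.32) to 0.26 (Phlda3, SE 0.26), with a median of -0.15 against 0.01 over all genes, and 7 were negative. The 5 genes with a seed match had -0.27 (Mdm2, SE 0.14), -0.17 (Trp53, SE 0.099), -0.13 (Trp53inp1, SE 0.20), 0.04 (Tnfrsf10b, SE 0.17) and 0.26 (Phlda3, SE 0.26). Those without one had -0.30 (Cdkn1a), -0.23 (Bax, SE 0.14), -0.20 (Fas, SE 0.15), -0.07 (Ccng1, SE 0.11) and 0.03 (Eda2r, SE 0.43). The ranges overlap in part, and whether a seed match bears on these changes was not tested. With all 4 mice of both groups, Trp53 had -0.28 and Fas -0.45, and 0 of the 10 were called. A test that misses the threshold with 3 mice per group does not show that the treatment left these genes alike.

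The 2 mice absent from that table, miR-Ctrl mouse 3 and mouse 2 given anti-miR-873-5p, had a pattern of their own among the 10 genes. Each had the highest Cdkn1a and Trp53inp1 of its group, and each had the lowest Phlda3, Ccng1 and Eda2r. Relative to the mean of the no BDL mice, Cdkn1a was higher by 3.53 and 3.67 on the log2 scale in them, against 1.22 to 2.32 in the other 6 BDL mice. Phlda3 was higher by 1.90 and 2.74 in them, against 2.58 to 3.64 in the others, and Eda2r by 0.17 and 1.03 against 1.67 to 2.99. The p53 targets therefore did not keep a common order from mouse to mouse. Other genes of the pathway were also extreme in these mice. Btg2, an antiproliferative gene, had levels of 226.7 and 205.5, against 27.6 to 65.7 in the other BDL mice, and Ddit4, an inhibitor of mTOR signalling, had 87.7 and 99.6 against 8.39 to 18.5. Plk2 was at 8.31 and 8.75, against 22.6 to 31.6. Endothelial markers summed to 33.8 and 48.6 in them and to 81.2 to 150.0 in the other BDL mice. Their stellate cell (239.2 and 123.4), T and NK cell (0.831 and 0.603) and B cell (0.831 and 0.151) marker sums were also the lowest of their groups. Other sums set these 2 mice against each other. In miR-Ctrl mouse 3 the macrophage (1642), neutrophil (252.5) and cholangiocyte (109.2) sums were the highest of its group. Mouse 2 given anti-miR-873-5p had 528.0, 22.25 and 61.9, its neutrophil and cholangiocyte sums being the lowest of its group. Hepatocyte markers summed to 50820 and 93640 in these 2 mice, near the low end of one group and at the top of the other. What set these mice apart was not tested.

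**Figure D3:**
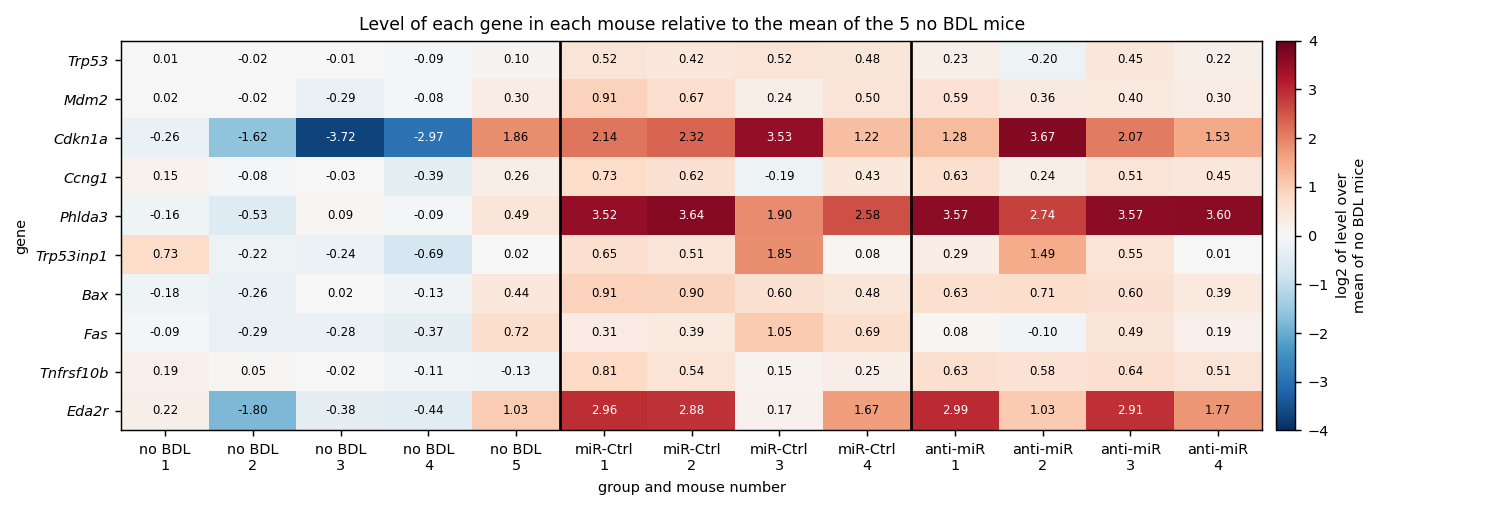
Level of each gene (rows) in each mouse (columns, by group) as the log2 of the level over the mean of the 5 no BDL mice, red above and blue below. miR-Ctrl mouse 3 and mouse 2 given anti-miR-873-5p have the darkest Cdkn1a cells of their groups, at 3.53 and 3.67, and the palest Phlda3 and Eda2r cells.

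No BDL mouse 5 stood apart as well. It was the highest of its group for 8 of the 10 genes, all but Trp53inp1 and Tnfrsf10b, with a median of 0.37 on the log2 scale above the group mean, against -0.25 to 0.02 in the other 4. Its Saa1, an acute-phase gene of hepatocytes, was at 6821, against 47.4 to 97.9 in the other no BDL mice and 134.6 to 5293 in BDL mice, and its macrophage markers summed to 506.1, against 95.6 to 247.1. Without it the median log2 fold change of the 10 genes was 0.89 with miR-Ctrl and 0.65 with anti-miR-873-5p.

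Beyond these 10, 91 further genes of the p53 pathway were examined, sorted by role into regulators and targets of cell cycle arrest, apoptosis, DNA repair, metabolism and signalling. With miR-Ctrl BDL, 83 passed the filter, of which 22 rose and 13 fell (edgeR, adjusted over all genes), or 26.5% and 15.7% of those tested beside 19.1% and 16.6% of all genes. Their median log2 fold change was 0.14. In anti-miR-873-5p BDL, 82 were tested, 16 rose and 4 fell, or 19.5% and 4.88% beside 13.1% and 8.44% of all genes, with a median of 0.12. Some of these genes were so low without BDL that they passed the filter only with the help of the BDL mice. Of the 75 that the no BDL mice alone would have carried past it, 14 (18.7%) rose with miR-Ctrl and 10 (13.3%) with anti-miR-873-5p, beside 15.5% and 10.1% of all genes chosen that way after the data were seen. Scaling by library size alone turned these splits into 63 higher and 1 lower, and 67 higher and 0 lower. Between both BDL groups 0 of 83 were called by edgeR or DESeq2, and 5 of them (6.02%), Gadd45a, Plk3, Trp53i11, Trp53i13 and Gdf15, had an unadjusted p under the level of 0.05, near the 6.28% of all genes. Most of the wider pathway, 48 and 62 genes, was not called against no BDL.

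**Figure D4:**
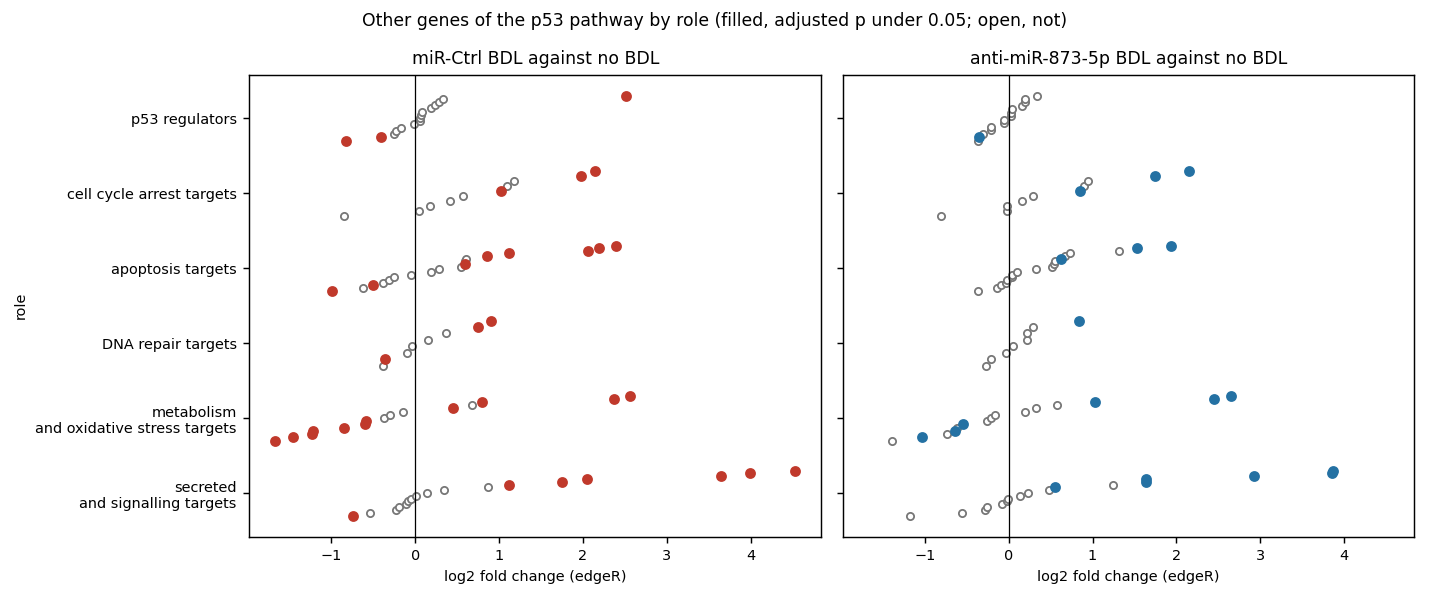
Log2 fold change (x axis) of the further p53 pathway genes that passed the filter, in rows by role, against no BDL, for miR-Ctrl on the left and anti-miR-873-5p on the right. Filled points had an adjusted p under 0.05, open points did not. Signalling targets reach 4.53 and 3.87 (Lif), while 7 of 15 metabolic targets in the left panel are filled below 0.

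Among the pathway genes examined, the signalling and secreted targets held the largest positive changes. Lif, a cytokine of the IL-6 family, was higher by 4.53 and 3.87 on the log2 scale, from 1 to 3 reads per no BDL mouse to 24 to 114 with miR-Ctrl and 20 to 69 with anti-miR-873-5p. Psrc1, a microtubule-associated protein of dividing cells, was higher by 3.99 and 3.85, from 1 to 4 reads to 9 to 88 and 11 to 66. Both passed the filter only through the BDL mice, so no p is given for them. Thbs1, the matrix glycoprotein thrombospondin 1, rose by 3.64 and 2.93 (adjusted p = 0.0013 and 0.00206 by edgeR). Without miR-Ctrl mouse 3 the Thbs1 value was 2.89. Of the 17 genes of this role that were tested, 6 were called higher in both BDL groups (35.3%, beside 19.1% and 13.1% of all genes), these included, and 1 and 0 lower. Since Lif and Psrc1 passed the filter only through the BDL mice, this share is a description. Gdf15, a stress cytokine, had -0.54 and -1.18 (adjusted p = 0.659 and 0.365 by edgeR). Its values without no BDL mouse 1 were 0.97 and 0.34.

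Among targets that arrest the cell cycle, 10 were tested, and 3 were called higher (30.0%, beside the same 19.1% and 13.1%) and 0 lower in either BDL group. Of those called, only Zmat3 would have passed the filter on the no BDL mice alone. The others passed with the help of the BDL mice, so this share is a description. Zmat3, an RNA-binding protein, rose by 1.02 (SE 0.19, adjusted p = 0.00278) and 0.85 (SE 0.15, adjusted p = 0.00503) by edgeR. Its levels of 11.01 to 17.7 and 12.97 to 14.2 in the BDL groups lay above all no BDL mice at 5.88 to 9.62. Plk2, a polo-like kinase, had 1.09 and 0.94 (adjusted p = 0.0537 and 0.0903 by edgeR), which became 1.36 without miR-Ctrl mouse 3 and 1.18 without mouse 2 given anti-miR-873-5p (adjusted p = 0.00517 and 0.0147 by edgeR). Btg2 had 1.18 and 0.90 (adjusted p = 0.314 and 0.512 by edgeR), 0.37 and -0.11 without the same mice, and 2.52 and 2.24 without no BDL mouse 1, which had the highest level of its group at 151.6. Gadd45a, a growth arrest and DNA damage gene, had -0.85 and -0.81 (adjusted p = 0.369 and 0.359 by edgeR), which became -0.037 and 0.0065 without no BDL mouse 1. In the comparison of both BDL groups Gadd45a had 0.77 (SE 0.33, adjusted p = 0.775 by edgeR). Of the p53 regulators, Chek1, a DNA damage checkpoint kinase, was higher by 2.52 with miR-Ctrl, from 4 to 9 reads per no BDL mouse to 16 to 111, which carried it past the filter, and was below the filter in the other comparison with no BDL. Mdm4, the partner of MDM2, had 0.29 and 0.20 (adjusted p = 0.337 and 0.494 by edgeR), and Cdkn2a, whose product p19ARF inhibits MDM2, had 0 to 5 reads and was not tested.

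Of the 18 apoptosis targets tested, 6 were called higher (33.3%) and 2 lower (11.1%) with miR-Ctrl, beside 19.1% and 16.6% of all genes. With anti-miR-873-5p 3 were called higher (16.7%) and 0 lower, beside 13.1% and 8.44% of all genes, so the share called higher was near that of all genes. Dram1 and Pmaip1, both among those called with miR-Ctrl, passed the filter only with the help of the BDL mice, so the 33.3% is a description. Pmaip1, the BH3-only protein NOXA, was higher by 2.19 and 1.94, from 0.164 to 1.19 in no BDL to 1.52 to 3.34 and 0.905 to 2.99. It had 2 to 15 reads in no BDL mice, passed the filter with the help of the BDL mice, and was called with anti-miR-873-5p in 3 of 9 fits that left out 1 mouse. Aen, an apoptosis-enhancing nuclease, rose by 0.59 and 0.63 (adjusted p = 0.0201 and 0.0448 by edgeR). The second value was 0.47 without mouse 2 given anti-miR-873-5p, with an adjusted p of 0.082 by edgeR, and was called in 1 of 9 such fits. Bbc3, the BH3-only protein PUMA, had 0.60 and 0.55 (adjusted p = 0.138 and 0.157 by edgeR). Igfbp3, an IGF binding protein, fell by 0.99 with miR-Ctrl (adjusted p = 0.00413 by edgeR) and had -0.36 with anti-miR-873-5p (adjusted p = 0.402).

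In DNA repair 8 targets were tested, of which 2 rose and 1 fell with miR-Ctrl (25.0% and 12.5%), and 1 rose with anti-miR-873-5p (12.5%), shares near those of all genes. Ddb2, a sensor of UV damage, had 0.15 and 0.29 (adjusted p = 0.352 and 0.104 by edgeR). The metabolic targets went both ways, with 4 higher and 7 lower of 15 with miR-Ctrl (26.7% and 46.7%, beside 19.1% and 16.6% of all genes) and 3 and 3 with anti-miR-873-5p (beside 13.1% and 8.44%), and their medians were -0.37 and -0.21. Ak1, an adenylate kinase, was higher by 2.56 and 2.66, from 1 to 7 reads per no BDL mouse to 17 to 50 and 14 to 51. It passed the filter only through the BDL mice, so the shares called higher are a description. Ddit4 rose by 2.37 and 2.44 (adjusted p = 0.0222 and 0.0417 by edgeR), and had 1.23 without miR-Ctrl mouse 3 and 1.06 without mouse 2 given anti-miR-873-5p (adjusted p = 0.0535 and 0.11 by edgeR). Sesn2, a stress-induced inhibitor of mTORC1, had 0.68 with miR-Ctrl (adjusted p = 0.065 by edgeR) and rose by 1.03 with anti-miR-873-5p (adjusted p = 0.0203 by edgeR), and no test compared both changes with each other. The genes that fell with miR-Ctrl included Lpin1, a phosphatidate phosphatase, at -1.67 (adjusted p = 0.0479), Pank1, a pantothenate kinase, at -1.46 (adjusted p = 0.00166), Dcxr, a carbonyl reductase, at -1.23 (adjusted p = 0.000714) and Gls2, the liver glutaminase, at -1.22 (adjusted p = 0.00144), all by edgeR. Lpin1 was called in 2 of 9 fits that left out 1 mouse. With anti-miR-873-5p, Pank1 fell by 1.04 (adjusted p = 0.0461 by edgeR) and Aldh4a1, a proline catabolism enzyme, by 0.64 (adjusted p = 0.0461 by edgeR). Nadsyn1, which makes NAD, fell by 0.55 (adjusted p = 0.0453 by edgeR), and Cop1, a ubiquitin ligase that targets p53, by 0.35 (adjusted p = 0.045 by edgeR). These 4 calls held in 1 to 3 of 9 fits without 1 mouse. Hepatocyte marker sums were lower in all BDL mice than in the no BDL mice, and their part in the lower metabolic genes was not tested.

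The p21 and DREAM axis was followed through 35 cell cycle genes that this complex represses. With miR-Ctrl BDL 31 passed the filter and 27 were called higher, beside 19.1% of all genes, and with anti-miR-873-5p BDL 25 passed and 18 were called higher, beside 13.1%, while Tyms fell in both. Of these, 14 and 8 genes were too low in no BDL mice to pass the filter without the BDL mice, so the counts are a description. Among the 17 that the no BDL mice alone would have carried past it, 13 (76.5%) and 10 (58.8%) were called higher. The shares of all genes chosen that way were 15.5% and 10.1%. Cdk1, the mitotic kinase, was higher by 3.33 and 2.31, from 9 to 21 reads in no BDL mice. Mki67, the proliferation marker, was higher by 3.67 and 2.86, from 8 to 31 reads, and Top2a, a topoisomerase of dividing cells, by 4.07 and 3.26, from 5 to 17 reads. Ccnb1, cyclin B1, was higher by 5.09 with miR-Ctrl, from 0 to 5 reads, and was below the filter in the other comparison. All 4 passed the filter with the help of the BDL mice, so their values are given with no p. Cdkn1a and the genes that p21 acts to repress thus both had higher group means after BDL. In the comparison of both BDL groups 34 of the 35 had a negative log2 fold change, with a median of -0.68 against 0.01 over all genes. None was called by edgeR or DESeq2. At an unadjusted p of 0.05 by edgeR, 5 of the 35 (14.3%) passed, beside 6.28% of all genes. Cdk1 had -1.04 (SE 0.42, adjusted p = 0.775 by edgeR).

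Mouse by mouse the picture differed. The summed level of the 35 genes was 136.1 to 152.9 in no BDL mice. With miR-Ctrl it was 536.8, 227.1, 156.2 and 545.9 in mice 1 to 4, and with anti-miR-873-5p 327.3, 113.1, 230.8 and 368.2. The BDL mice with the highest Cdkn1a, miR-Ctrl mouse 3 (155.2) and mouse 2 given anti-miR-873-5p (170.5), had the lowest sums of their groups, near or below the no BDL mice. The next highest in Cdkn1a, miR-Ctrl mouse 2 (67.0) and mouse 3 given anti-miR-873-5p (56.4), had the next lowest sums in their groups. The order did not hold throughout, since mouse 4 given anti-miR-873-5p exceeded mouse 1 in both Cdkn1a (38.7 against 32.5) and the sum. Among no BDL mice Tyms alone made up 67.9 to 82.2 of each sum. Without Tyms, left out after its values were seen, the other 34 genes summed to 70.7, 55.05, 63.3, 68.1 and 75.6 in no BDL mice 1 to 5, highest in mouse 5, which also had the highest Cdkn1a. The same sum was 101.7 in miR-Ctrl mouse 3 and 57.2 in mouse 2 given anti-miR-873-5p, against 175.0 to 488.8 in the other 6 BDL mice. Without mouse 2 given anti-miR-873-5p the number of DREAM genes called higher in that group went from 18 of 25 tested to 32 of 34, and without miR-Ctrl mouse 3 from 27 of 31 to 33 of 35, so more genes passed the filter as well. These 2 mice also had the lowest endothelial, stellate, T and NK and B cell marker sums of their groups. Their neutrophil and cholangiocyte sums lay at opposite ends of their groups. The part of these cell markers was not tested.

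**Figure D5:**
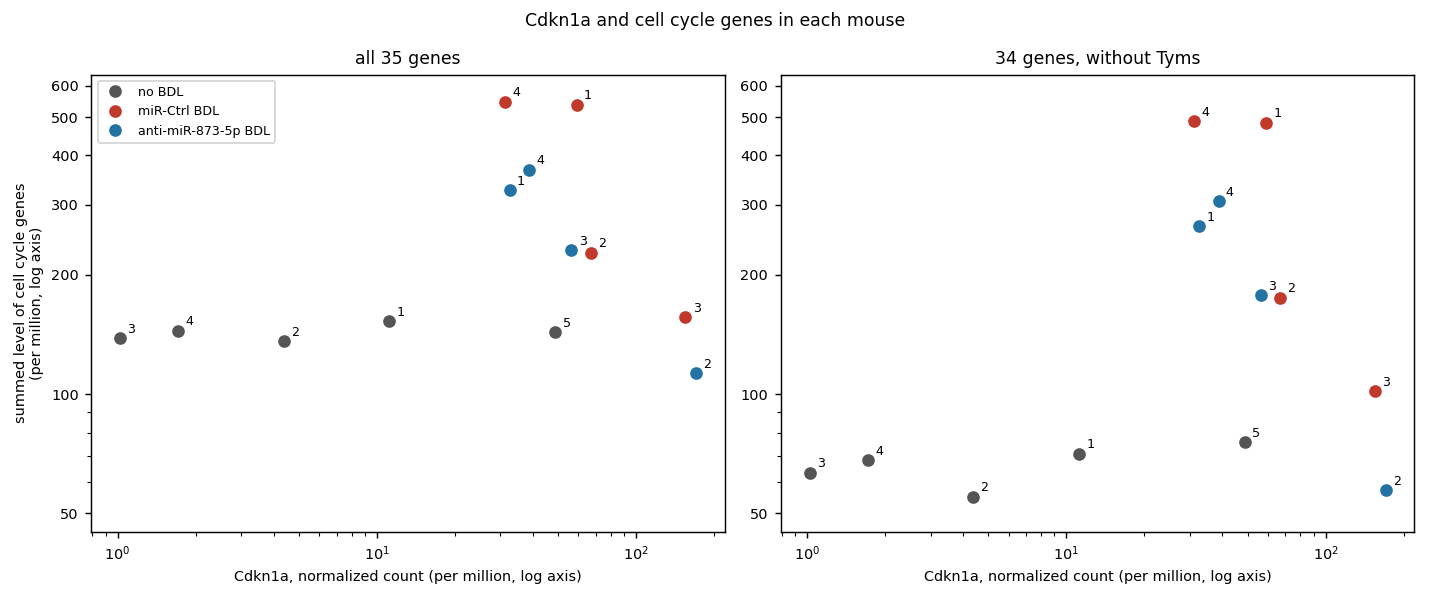
Normalized count of Cdkn1a (x axis, CPM, log scale) against the summed level of DREAM-repressed cell cycle genes (y axis, CPM, log scale) in 13 mice, with mouse numbers, for all 35 genes on the left and without Tyms on the right. No BDL mice lie between 136.1 and 152.9 on the left and between 55.05 and 75.6 on the right, and in both panels miR-Ctrl mouse 3 and mouse 2 given anti-miR-873-5p have the highest Cdkn1a and the lowest sums of their groups.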

How the data were processed

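Liver RNA of 13 mice was analysed from 3 tables of deposited counts. The authors prepared libraries with the TruSeq RNA v2 kit, which does not keep strand, mapped single reads of 50 bases to mm10 with TopHat and deposited the raw read count of each Entrez gene. The counter and its annotation are not given in the sources used here. Column names gave each mouse its group.

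Counts were filtered with filterByExpr, scaled by TMM and tested with the quasi-likelihood test of edgeR 4.0.16 in R 4.3.3, with Benjamini-Hochberg adjustment over all genes. DESeq2 1.42.0 was an alternative. The fit was tested on simulated data with 200 changed genes. Levels used the 22246 genes with identical counts in all tables. The 10 genes, the further gene lists and the rule for named genes were chosen with earlier results of these data known, so no p is given for the 10. Named were the 10 genes, their ligands, 12 fixed pathway genes, 4 cell cycle genes and, per comparison, up to 5 called pathway genes with the largest change in each direction. Replicates are separate mice, and same-numbered mice are different animals. Other scalings, filters, a joint fit, a block on mouse number, all 4 mice and leaving out each mouse were tried. Sco2, 1 of 92 listed pathway genes, was not analysed here, and 1 further pathway gene is not reported here.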

Additional observations from a re-analysis of the deposited data

Results flagged for a closer look

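Dixon's test was applied to the 10 genes in each of the 3 groups, 30 groups of 4 or 5 mice in all, and 3 values, from 2 mice, were past its limit. Chance flags about 1 in 20 such groups. Cdkn1a in no BDL mouse 5 stood far above its group, at 48.9 normalized counts against 1.02 to 11.2 in the other 4. Fas in the same mouse was at 25.4, against 11.95 to 14.6. Phlda3 in mouse 2 given anti-miR-873-5p stood below its group, at 6.41 against 11.4 to 11.6 in the other 3. That mouse is one of those missing from the authors' table of both BDL groups.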

How the results depend on the processing

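The 10 genes kept a positive log2 fold change against no BDL under every alternative run, and 0 called values changed sign. Scaling by library size alone, which shifted the median of all genes by 0.79 and 0.82, moved the medians of the 10 genes to 1.499 with miR-Ctrl and 1.43 with anti-miR-873-5p. It gave 63 and 67 further pathway genes higher, 1 and 0 lower, and 0 and 0 DREAM genes lower. After anti-miR-873-5p, the 4 further pathway genes called lower became 2 with all genes of at least 1 count and 2 with all 3 groups in 1 fit. With the replicate block on mouse number they became 0, and DREAM genes called lower also 0. Among genes that the no BDL mice alone carry past the low-count filter, a choice made after seeing the data, 14 and 10 further pathway genes were called higher and 13 and 10 DREAM genes, against 22, 16, 27 and 18, since fewer genes were then counted. Same-numbered mice are different animals, and their correlations against no BDL ran from -0.19 to 0.064. The block gave 4063, 2195 and 0 calls over all genes, against 4666, 2823 and 0, and log2 fold changes of 4.21 and 4.22 for Cdkn1a, which was then called. Number 5 occurs only among the no BDL mice, so against no BDL the block in effect left that mouse out. Leaving out no BDL mouse 5 directly gave 4.11 and 4.04 for Cdkn1a, so the block is no separate check on this gene. In the comparison of both BDL groups, mice numbered 1 and 4 correlated at 0.544 and 0.218, and whether a number marks a shared batch there was not tested.

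Leaving out 1 mouse at a time, with miR-Ctrl the further pathway genes called lower ranged from 8 to 14. With anti-miR-873-5p, further pathway genes called higher ranged from 10 to 19 and lower from 0 to 10, and DREAM genes higher from 10 to 32 and lower from 0 to 1. The counts of 10 lower and 32 higher came without mouse 2 given anti-miR-873-5p, and the cause was not tested. Of the 10 genes, Trp53, Mdm2, Phlda3, Bax and Eda2r with miR-Ctrl, and Phlda3, Tnfrsf10b and Eda2r with anti-miR-873-5p, were called in all 9 such fits. Because the 10 were picked with these contrasts in view, the repeated calls are only a description. Phlda3 and Eda2r also passed the filter with the help of the BDL mice. Genes with few reads, such as Eda2r with 2 to 17 in no BDL mice, limit the precision of a fold, and 3 mice per group limit the direct comparison of both oligonucleotides. The anti-miR-873-5p changes of Ccng1, Eda2r, Phlda3 and Tnfrsf10b against miR-Ctrl changed sign in at least 1 alternative.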

Other observations

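The other members of the p53 family were hardly detected in these livers. Trp63 had 0 to 4 reads per mouse and Trp73 0 to 1, so neither passed the filter on low counts in any comparison. Trp53cor1, the noncoding RNA next to Cdkn1a, had 0 to 16 reads and was likewise not tested.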
